A study of Mus musculus with 8 samples.

Results

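The genes described here are the chemokines, the interleukins and their receptors in whole kidney of diabetic db/db mice and normal mice. They were taken as all non-control probes whose gene name on the array starts with Ccl, Cxcl, Ccr, Cxcr or Il followed directly by a digit, or is Cx3cl1 or Cx3cr1. A probe was kept when in 1 or more groups the scanner software found its signal well above background on each of the 2 arrays. Of 223 such probes for 135 genes, 117 probes for 82 genes were kept, among 33639 kept probes of 56601 on the array. They fall into 34 probes for 23 chemokines, 12 probes for 10 chemokine receptors, 23 probes for 18 interleukins and 48 probes for 31 interleukin receptors or binding proteins. The rule used no difference between groups, though the members were chosen with earlier results of these data known. A probe that was bright in a single group could enter through that group alone. Of the kept probes, 83 for 57 genes were well above background on all 8 arrays. The other 106 probes, which include every probe of 53 genes, had no test.

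Total RNA from kidneys of male mice aged 20 weeks was hybridised to 8 single-colour Agilent arrays on 1 slide, 2 arrays a group. The normal mice carried the label m/m (strain C57BLKS/J Iar -m+/m+). The 3 other groups were db/db mice of strain C57BLKS/J Iar -+Leprdb/+Leprdb, in which the leptin receptor gene is mutated so that the mice become obese and diabetic. These were untreated, given control-miRNA-PEI-NPs, or given miRNA-181b-5p-mimic-PEI-NPs, nanoparticles that carry a control miRNA or a mimic of miR-181b-5p. The groups are called normal, untreated, control-miRNA and mimic below. All treated mice were db/db, so the treatments were not measured in normal mice. The labels state neither dose nor duration. The labels do not say whether the 2 samples of a group came from separate animals, so the p-values measure the spread between these samples. The normal and untreated arrays lay in row 1 of the slide and both nanoparticle groups in row 2, so slide row and nanoparticles cannot be told apart. The normal and control-miRNA arrays lay in columns 1 and 2, and the untreated and mimic arrays in columns 3 and 4. Slide column therefore cannot be told apart from the difference of untreated against normal or of mimic against control-miRNA kidney.

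Chemokines are small secreted proteins that draw leukocytes along a gradient through G protein-coupled receptors. Cxcl9, Cxcl10 and Cxcl11 bind Cxcr3 on activated T cells and NK cells, Cxcl16 binds Cxcr6, Cxcl12 binds Cxcr4, Ccl2 binds Ccr2, and Cx3cl1 binds Cx3cr1. Interleukins act through receptors that share chains, such as Il2rg for the Il2 and Il15 family and Il6st for the Il6 family, and in the kidney both tubular cells and resident macrophages make and receive them. The miR-181 family is known from work on inflammation and lymphocyte development.

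The agent given to the mimic group is a copy of the mature miRNA, which is shown with its relatives because they share the seed, bases 2 to 8, in capitals. RefSeq (GRCm38.p6) places miR-181b at chr1:137966650-137966673 and chr2:38853845-38853868, both on the plus strand. The array probes described here measure messenger RNA, not this molecule.
mmu-miR-181b-5p: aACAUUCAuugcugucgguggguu
mmu-miR-181a-5p: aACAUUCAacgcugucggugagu
mmu-miR-181c-5p: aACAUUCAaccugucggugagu
mmu-miR-181d-5p: aACAUUCAuuguugucggugggu

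Promoters are shown for the chemokine and the chemokine receptors that differed most clearly between untreated db/db and normal kidney on more than 1 probe, for Cxcr3, and for 2 ligands of Cxcr3 that lie close together on chromosome 5. Each window runs from 250 bases before to 50 bases after the start of the gene in RefSeq (GRCm38.p6), in the direction of the gene. Capitals mark matches on either strand to 4 motifs, overlapping matches joined: the NF-kB core GGGNNNNNCC, the interferon-gamma element GAS (TTCNNNGAA), the interferon-stimulated element ISRE (GAAANNGAAA) and the T-box core TCACACC. Of the 82 genes, 63 had a promoter entry.
Cxcl12, chr6:117168285-117168584, plus strand: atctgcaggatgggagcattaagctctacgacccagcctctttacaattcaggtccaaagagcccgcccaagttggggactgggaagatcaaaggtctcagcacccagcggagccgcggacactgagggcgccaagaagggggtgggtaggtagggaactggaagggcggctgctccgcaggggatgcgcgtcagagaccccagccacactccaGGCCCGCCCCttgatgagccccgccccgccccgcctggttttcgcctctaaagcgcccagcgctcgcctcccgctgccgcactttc
Cxcr6, chr9:123806227-123806526, plus strand: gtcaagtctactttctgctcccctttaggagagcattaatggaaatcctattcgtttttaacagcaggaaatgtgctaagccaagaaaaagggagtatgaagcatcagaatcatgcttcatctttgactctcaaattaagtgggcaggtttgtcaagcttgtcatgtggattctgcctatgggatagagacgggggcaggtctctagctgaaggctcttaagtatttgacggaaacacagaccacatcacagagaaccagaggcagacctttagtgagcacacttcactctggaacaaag
Cxcr3, chrX:101734098-101734397, minus strand: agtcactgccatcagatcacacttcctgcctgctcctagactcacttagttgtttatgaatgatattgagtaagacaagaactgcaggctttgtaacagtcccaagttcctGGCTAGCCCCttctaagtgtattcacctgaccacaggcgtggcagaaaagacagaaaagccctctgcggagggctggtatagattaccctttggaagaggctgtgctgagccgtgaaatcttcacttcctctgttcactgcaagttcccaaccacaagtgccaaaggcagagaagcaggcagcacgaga
Cxcl9, chr5:92328030-92328329, minus strand: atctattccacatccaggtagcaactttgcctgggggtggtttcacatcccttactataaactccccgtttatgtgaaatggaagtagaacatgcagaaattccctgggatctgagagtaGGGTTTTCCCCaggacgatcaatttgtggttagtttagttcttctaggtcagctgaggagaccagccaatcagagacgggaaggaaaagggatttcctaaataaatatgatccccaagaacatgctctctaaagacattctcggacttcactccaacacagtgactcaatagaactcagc
Cxcl10, chr5:92348840-92349139, minus strand: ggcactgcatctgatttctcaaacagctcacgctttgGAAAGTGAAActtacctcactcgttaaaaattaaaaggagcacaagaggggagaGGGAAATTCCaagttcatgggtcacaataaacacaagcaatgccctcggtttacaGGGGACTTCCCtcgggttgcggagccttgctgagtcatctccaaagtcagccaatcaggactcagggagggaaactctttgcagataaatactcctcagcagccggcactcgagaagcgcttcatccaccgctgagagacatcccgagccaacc

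The Cxcl10 window held 1 ISRE match at -213 to -204 from the start and 3 NF-kB core matches, of which 2 overlap at -104 to -94. The Cxcl9 window held 2 overlapping NF-kB core matches at -130 to -120. The Cxcl12 and Cxcr3 windows held 1 NF-kB core match each, and no match was found in the Cxcr6 window. The NF-kB core is short and occurs in 50.8% of 32851 promoter windows of the same length, the GAS element in 8.3%, the ISRE in 3.44% and the T-box core in 3.98%. Among the 77 windows of the measured members the shares were 55.8%, 10.4%, 5.19% and 2.6%. The matches describe letters only.

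Levels are given as log2 of the scanner software's processed signal minus the 75th percentile of all probes on the same array, so a level of 0 is a probe at that percentile and a difference of 1 is 2-fold. Levels of different probes are not compared, since probes differ in brightness. Between 56.5% and 62.5% of the 59305 non-control spots were well above background on each array, and none was saturated. The markers of proximal tubule, distal tubule, collecting duct and podocytes were well above background on all arrays. Over all kept probes the replicates correlated with r = 0.991 in the normal group, 0.996 in the untreated group, 0.995 in the control-miRNA group and 0.976 in the mimic group. Mimic replicate 1 stood apart. Its summed level of 4 tubular injury markers (Krt20, Lcn2, Sox9 and Vcam1) was 54.6 on the linear scale, where 1 is the 75th percentile, against 1.56 to 2.67 on the 7 other arrays. Normal replicate 1 carried adipocyte markers at a summed level of 76.5 against 0.729 to 4.72 on the others, and urothelium markers at 18.1 against 1.41 to 8.99. With 2 arrays a group, an exact permutation test cannot go below p = 0.333, so the tests below are limma's moderated tests of 1 fit over all 8 arrays, with Benjamini-Hochberg adjustment over all 33639 probes and a threshold of 0.05.

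**Figure D1:**
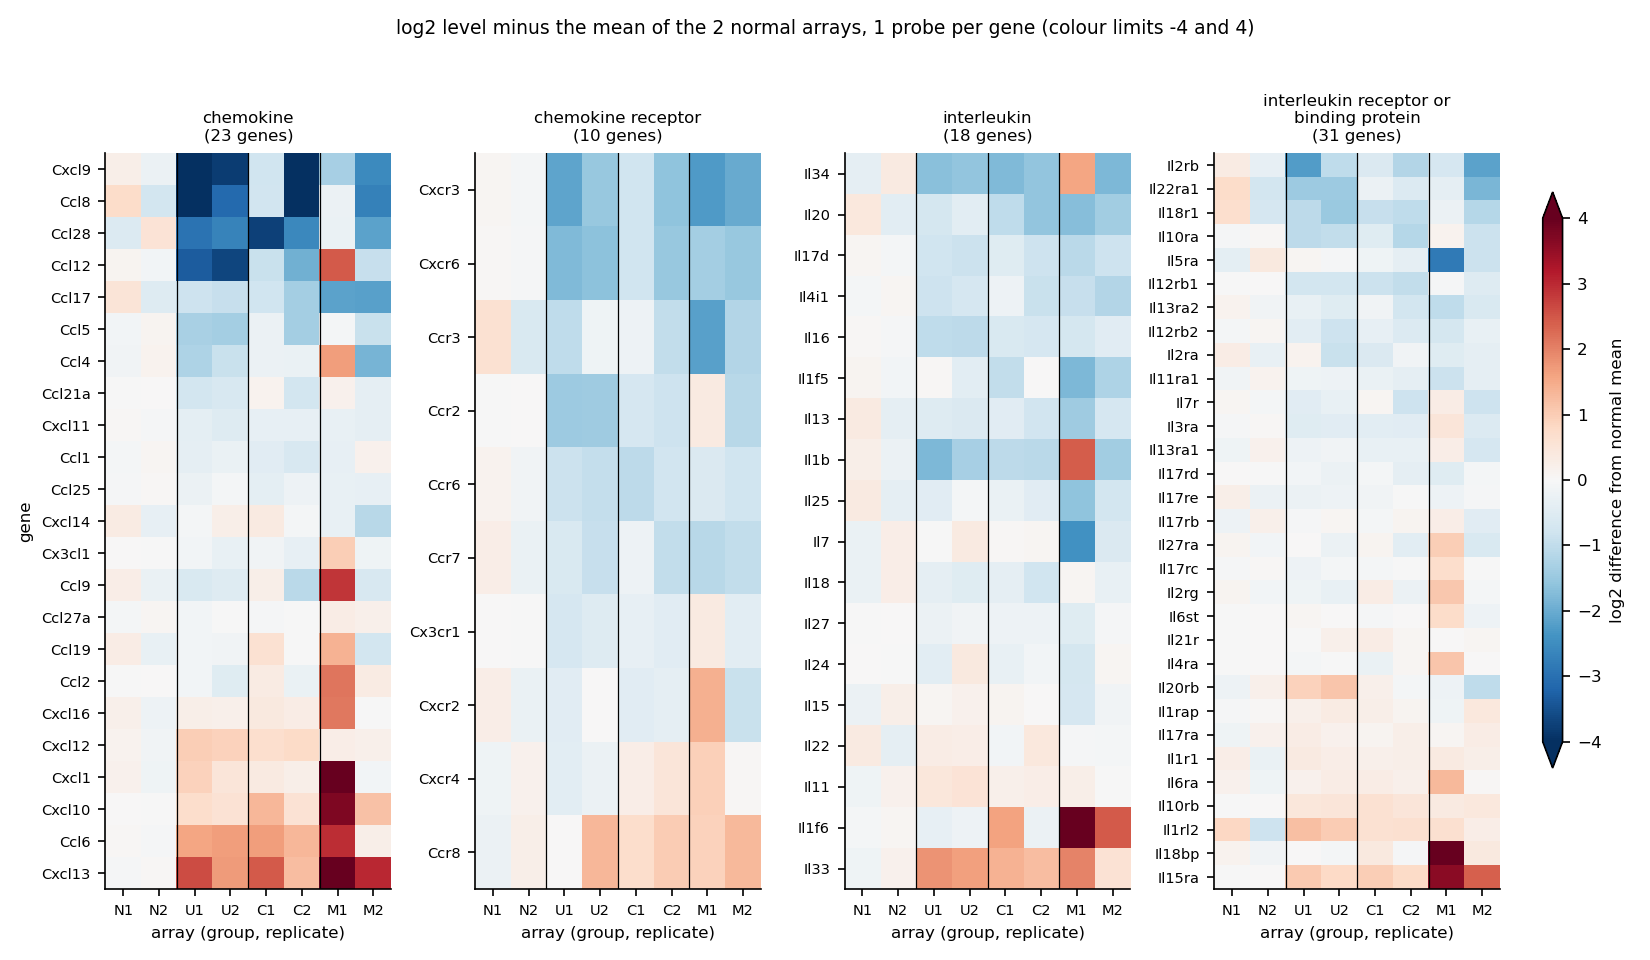
Level of the 82 measured genes on each of the 8 arrays minus the mean of the 2 normal arrays (log2, colour), 1 probe per gene, in 4 panels by role; N is normal, U untreated db/db, C control-miRNA and M mimic, with the replicate number. Most chemokine receptors are blue on all db/db arrays, and mimic replicate 1 (M1) is the array with the darkest red chemokines, such as Cxcl1, Cxcl10 and Ccl9.

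In untreated db/db against normal kidney the chemokine receptors Cxcr6, Cxcr3 and Ccr6 fell, as did Il16 and 1 of 3 Il15 probes, and the chemokine Cxcl12 rose. Cxcr6 fell 3.26-fold and Cxcr3 fell 3.53-fold, Ccr6, Il16 and Il15 fell by smaller amounts, and Cxcl12 rose about as much on both of its probes. Of the 117 member probes, 2 passed as higher (1.43% of all probes did) and 6 as lower (2.41% of all probes did). The median difference over the members was -0.21 on the log2 scale, against -0.02 over all probes. By role the medians were -0.22 for chemokines, -0.68 for chemokine receptors, -0.27 for interleukins and -0.09 for interleukin receptors. Of the 12 chemokine receptor probes, 11 were lower (17677 of all 33639 probes were) and 4 passed. The count of 8 passing probes rests on every array in the fit. It fell to none without any 1 of the normal or untreated arrays, fell without either control-miRNA array and rose without either mimic array. Each such fit leaves 1 array in a group, and the share of all probes that passed in it is not given here or below.

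Cxcl12, the ligand of Cxcr4 that retains progenitor cells and leukocytes in tissue, was the member chemokine that rose in untreated kidney. Probe A_51_P172502 (chr6:117131227-117131286, mm9) had levels of 3.43 and 3.17 in normal kidney, 4.28 and 4.22 in untreated, 3.97 and 4.07 in control-miRNA and 3.56 and 3.51 in mimic kidney. All 6 db/db arrays lay above both normal arrays, and the untreated arrays were the highest. Untreated minus normal was 0.95 ± 0.13 (SE, log2; 1.93-fold; adjusted p = 0.0263, limma). Probe A_55_P1966204 (chr6:117125026-117125085, mm9), named for another Cxcl12 transcript, had 1.43 and 1.43 in normal, 2.52 and 2.36 in untreated, 2.17 and 2.11 in control-miRNA and 1.82 and 1.59 in mimic kidney. It showed the same order of groups, with 1.01 ± 0.13 for untreated minus normal (2.01-fold; adjusted p = 0.0225, limma). Its receptor Cxcr4 had levels of -3.47 and -3.16 in normal against -3.74 and -3.53 in untreated kidney and did not pass (adjusted p = 0.541, limma).

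Cxcr6, the Cxcl16 receptor of tissue-resident T cells and NKT cells, fell on both probes. A_55_P1962209 (chr9:123720719-123720778, mm9) had levels of -1.19 and -1.29 in normal, -3.01 and -2.88 in untreated, -2.03 and -2.74 in control-miRNA and -2.60 and -2.74 in mimic kidney. Every db/db array was below both normal arrays. Untreated minus normal was -1.71 ± 0.23 (SE, log2; adjusted p = 0.025, limma). A_51_P412027 (chr9:123720605-123720664, mm9) was 3.54-fold lower (adjusted p = 0.0428, limma). Cxcl16, its ligand, had levels of 0.72 and 0.32 in normal and 0.75 and 0.73 in untreated kidney on the brighter of 2 probes (0.22; adjusted p = 0.854, limma).

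Cxcr3, the receptor of the interferon-induced chemokines, was read by 1 probe (A_51_P319022, chrX:98926920-98926979, mm9). Its levels were -2.34 and -2.47 in normal, -4.51 and -3.93 in untreated, -3.20 and -4.01 in control-miRNA and -4.66 and -4.41 in mimic kidney. It was well above background on both normal and both control-miRNA arrays, on 1 untreated array and on no mimic array. Untreated minus normal was -1.82 ± 0.31 (SE, log2; 3.53-fold lower; adjusted p = 0.0386, limma). Ccr6, the Ccl20 receptor of B cells and Th17 cells (A_55_P2108943, chr17:8449933-8449992, mm9), had levels of -2.65 and -2.92 in normal against -3.64 and -3.72 in untreated kidney and was 1.86-fold lower (adjusted p = 0.0467, limma). The other chemokine receptors did not pass. Ccr2, which guides monocytes, had levels of -2.06 and -2.02 in normal against -3.49 and -3.45 in untreated kidney (2.70-fold lower; adjusted p = 0.107, limma), with no overlap between the groups. Cx3cr1, expressed by resident kidney macrophages, had 0.82 and 0.76 against 0.12 and 0.28 (adjusted p = 0.204, limma).

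Marker lists of leukocytes are given beside these receptors. The lists were chosen with earlier results of these data known, so their counts are a description. None of the 11 measured T and NK cell markers passed, and all 11 had a lower mean in untreated than in normal kidney, with a median of -0.84 (10 of 11 lower at an unadjusted p under 0.05, limma, against 14.8% of all probes). Their summed linear level was 7.85 to 8.68 on the normal arrays, 5.56 to 5.98 on the untreated, 5.69 to 7.11 on the control-miRNA and 4.86 to 5.81 on the mimic arrays. Such a sum is set mostly by the brightest probes of its list, here Cd3e and Cd4. Cd8a and Klrb1c did not pass the filter, and the defining marker Cd3e was well above background on all arrays. None of 6 B and plasma cell markers passed, with a median of -0.49 and with Mzb1 at 0.54. Of 12 macrophage markers, 11 had a lower mean in untreated kidney (17677 of all 33639 probes did). Of these, 2 passed as lower, Csf1r and Ms4a7 (2.41% of all probes did). The summed level of the macrophage markers was 40.9 to 42.7 on the normal arrays, 21.4 to 22.5 on the untreated and 23.3 to 26.0 on the control-miRNA arrays. Of 5 dendritic cell markers 2 passed as lower, Clec9a and Flt3 (2.41% of all probes did), and Zbtb46 differed by 0.86 the other way without passing. Clec9a and Flt3 were above background on the 2 normal arrays alone. The filter itself therefore favours a lower db/db level for them, and their calls are a description. The summed red cell markers were 11.6 to 18.0 on the normal arrays and 135 to 203 on the untreated arrays. In whole kidney fewer cells of a type and less RNA per cell cannot be told apart, and the part of these cells in the receptor differences was not tested.

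**Figure D2:**
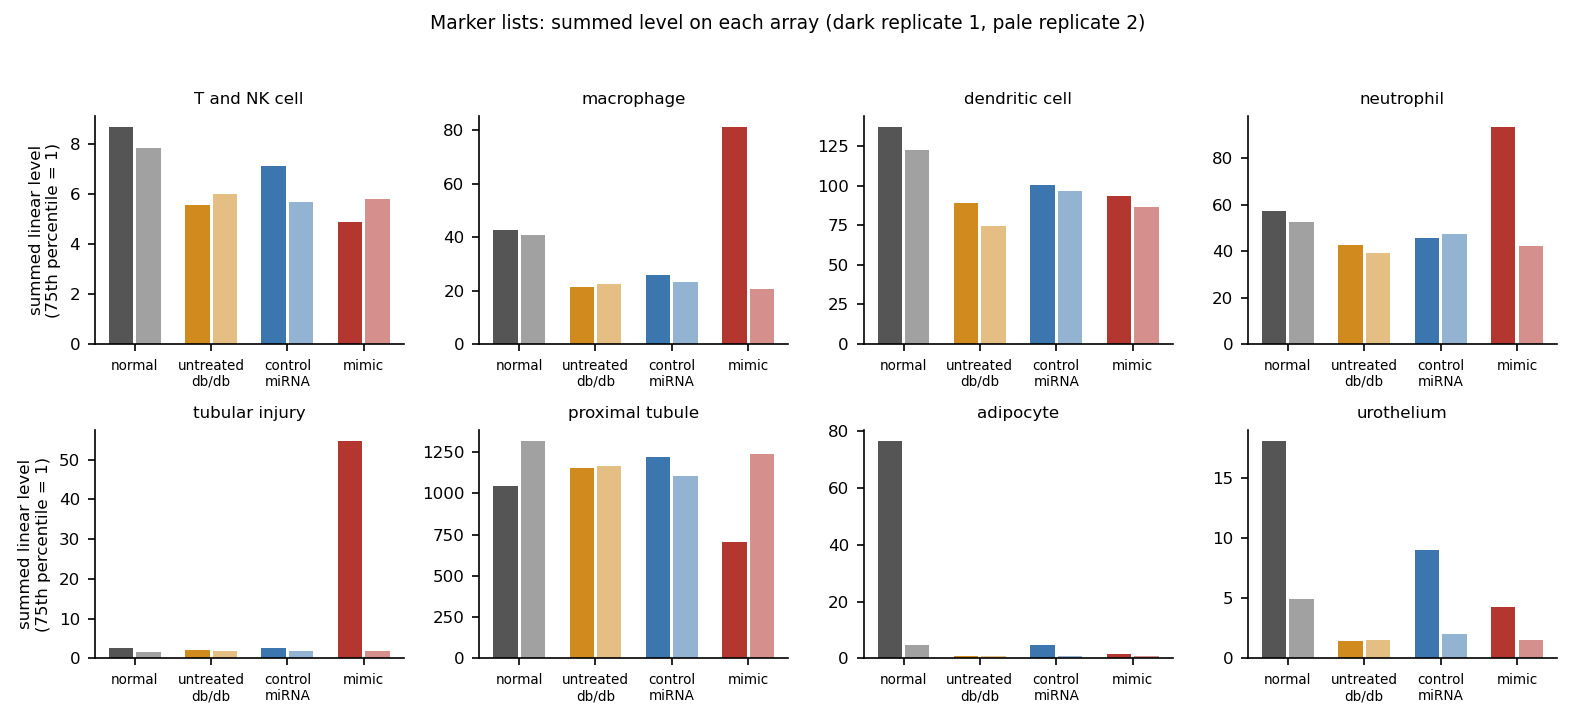
Summed linear level of 8 marker lists on each array (bars from 0; dark is replicate 1, pale replicate 2; 1 is the 75th percentile of all probes on the array). T and NK cell and dendritic cell sums are highest on the 2 normal arrays, and the tubular injury sum is 54.6 on mimic replicate 1 and at most 2.67 elsewhere. Each sum is set mostly by its brightest probes, on the normal arrays Siglech for dendritic cells, Csf3r for neutrophils and Csf1r for macrophages.

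Some dim chemokines differed widely without passing. Cxcl9, a Cxcr3 ligand induced by interferon-gamma (A_51_P461665, chr5:92752191-92752250, mm9), had levels of -2.29 and -2.75 in normal, -7.03 and -6.33 in untreated, -3.31 and -6.72 in control-miRNA and -3.85 and -5.06 in mimic kidney. It was well above background on both normal arrays and on neither untreated array, at least 4.47-fold lower there (adjusted p = 0.0782, limma). Here and below, at least N-fold sets the dim group at the lowest signal called well above background on each array, or at the probe's own signal where that is higher. Ccl8, a monocyte and T cell attractant (A_51_P464703), had -0.80 and -2.24 in normal against -6.12 and -4.61 in untreated kidney, at least 8.95-fold lower (adjusted p = 0.138, limma). Ccl12, a Ccr2 ligand (A_52_P249514), had -1.95 and -2.19 against -5.41 and -5.73, at least 6.1-fold lower (adjusted p = 0.101, limma). Ccl28, an epithelial chemokine of mucosal tissue (A_51_P276560), had -2.34 and -1.27 against -4.75 and -4.48, at least 7.01-fold lower (adjusted p = 0.0769, limma). For each of these 4 the normal arrays lay above the untreated arrays, which adds no support, since they were picked for wide differences. Cxcl9 and Ccl8 were kept through the normal group alone, so the filter itself favours a higher normal level for them. Ccl5, made by T cells and NK cells, had 0.28 and 0.49 against -0.92 and -0.99 (2.52-fold lower; adjusted p = 0.115, limma).

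Of the 34 chemokine probes, 24 were lower and 10 higher in untreated kidney, where 17677 of all 33639 probes were lower. Cxcl13, the B cell attractant (A_51_P378789, chr5:96389861-96389920, mm9), had levels of -6.39 and -6.32 in normal and -3.76 and -4.65 in untreated kidney (adjusted p = 0.0877, limma). Ccl6, a myeloid chemokine (A_51_P460954), had -1.12 and -1.23 against 0.40 and 0.51 (3.1-fold higher; adjusted p = 0.244, limma). Cxcl10 had 0.83 and 0.81 against 1.52 and 1.41 (adjusted p = 0.632, limma) and differed in sign from its neighbour Cxcl9, though neither passed. Cxcl11 differed by -0.45 on its brighter probe (adjusted p = 0.0845, limma). Ccl2, the main monocyte attractant, had -1.34 and -1.34 against -1.46 and -1.82, and Cxcl1, a neutrophil attractant, had -2.12 and -2.45 against -1.37 and -1.79. Cx3cl1 differed by -0.21 and Ccl27a by -0.05 on the brighter probe, and none of these 4 passed.

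Among the interleukins, Il16, a Cd4 ligand that attracts T cells, fell. Probe A_51_P372702 (chr7:90791654-90791713, mm9) had levels of -2.08 and -2.14 in normal, -3.14 and -3.16 in untreated, -2.72 and -2.78 in control-miRNA and -2.81 and -2.55 in mimic kidney. The untreated arrays were the lowest and no db/db array reached the normal ones. Untreated minus normal was -1.04 ± 0.13 (SE, log2; 2.06-fold lower; adjusted p = 0.0214, limma). The second Il16 probe differed by -0.58 and did not pass (adjusted p = 0.448, limma). Il15, which sustains NK cells and memory T cells, fell on probe A_55_P2733222 (chr8:84862385-84862444, mm9), with levels of -1.70 and -1.49 in normal, -2.30 and -2.48 in untreated, -1.67 and -1.70 in control-miRNA and -2.43 and -2.15 in mimic kidney. That difference was -0.79 ± 0.15 (SE, log2; adjusted p = 0.0491, limma). The 2 other Il15 probes, which lie next to each other on the chromosome (chr8:84855613-84855672 and chr8:84855813-84855872, mm9), differed by 0.12 and 0.25 the other way and did not pass, so the direction for the gene depends on the probe.

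Il33, an alarmin stored in the nucleus (A_55_P1964960, chr19:30035101-30035160, mm9), had levels of -1.52 and -1.20 in normal and 0.42 and 0.28 in untreated kidney (3.28-fold higher; adjusted p = 0.0744, limma). Il34, the epithelial ligand of Csf1r (A_51_P268234), had 1.30 and 2.02 against -0.01 and 0.07 (3.1-fold lower; adjusted p = 0.341, limma), while its receptor Csf1r fell. Il1b, the inflammasome cytokine, had -2.27 and -2.76 against -4.30 and -3.84 (adjusted p = 0.414, limma). Il18 had -0.43 and 0.08 against -0.53 and -0.67 (adjusted p = 0.329, limma). Il17d, an epithelial member of the Il17 family, had 0.75 and 0.60 against -0.12 and -0.17 (1.77-fold lower; adjusted p = 0.0536, limma). No probe for Il6, Il10 or Il1rn passed the filter.

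No interleukin receptor passed in untreated against normal kidney. The nearest were Il6st on its dimmer probe (-1.06; adjusted p = 0.0658), Il12rb1, a chain of the Il12 and Il23 receptors (-0.73; adjusted p = 0.0661), and Il10rb, the shared chain of the Il10 family (0.47; adjusted p = 0.0727, all limma). The brighter Il6st probe differed by 0.05. Il2rb, the signalling chain for Il2 and Il15 on NK and T cells, was at least 2.07-fold lower on 1 probe, which was above background on no untreated array, and differed by -1.62 on the other, above background on 1 untreated array (adjusted p = 0.0964 and 0.156, limma). Il20rb was 2.03-fold higher (adjusted p = 0.0993, limma). Some other receptors lay close to normal: Il1r1 differed by 0.32, Il17ra by 0.25, Il6ra by 0.24 and Il2rg by -0.24, with adjusted p of 0.346 to 0.734 (limma).

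With the 3 db/db groups averaged against normal kidney, 6 member probes passed as higher (4.37% of all probes did) and 11 as lower (6.74% of all probes did). This average shares its arrays with the pairwise comparisons and adds no independent evidence. The higher ones were both Cxcl12 probes, Cxcl13, Il33, Il10rb and 1 Il15ra probe. The lower ones were both Cxcr6 probes, Cxcr3, Ccr6, Ccl17, Ccl28, Il16, Il17d, Il12rb1, Il20 and 1 Il15 probe. Il33 was 2.71-fold higher (adjusted p = 0.0481, limma). No fold is given for Cxcl13, which was above background on neither normal array (adjusted p = 0.0271), or for Ccl28, which was above background on 3 of 6 db/db arrays (adjusted p = 0.0487, both limma). Cxcl13 and Il20 were kept through 1 group alone, mimic and untreated respectively, so for Cxcl13 the filter itself favours a db/db level above normal. The count of 17 fell to almost none without any 1 of the normal or untreated arrays. It also fell without either control-miRNA array and rose without either mimic array. All 6 db/db arrays lay above both normal arrays for 11 member probes (14.7% of all probes did) and below both for 22 (18.8% of all probes did). In a moderated F test over the 4 groups, 5 member probes passed (2.44% of all probes did): both Cxcl12 probes, Il16, Cxcr6 (A_55_P1962209) and Il15ra (A_55_P2060707). The F test count fell to none without any 1 of the normal, untreated or control-miRNA arrays and rose without either mimic array.

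**Figure D3:**
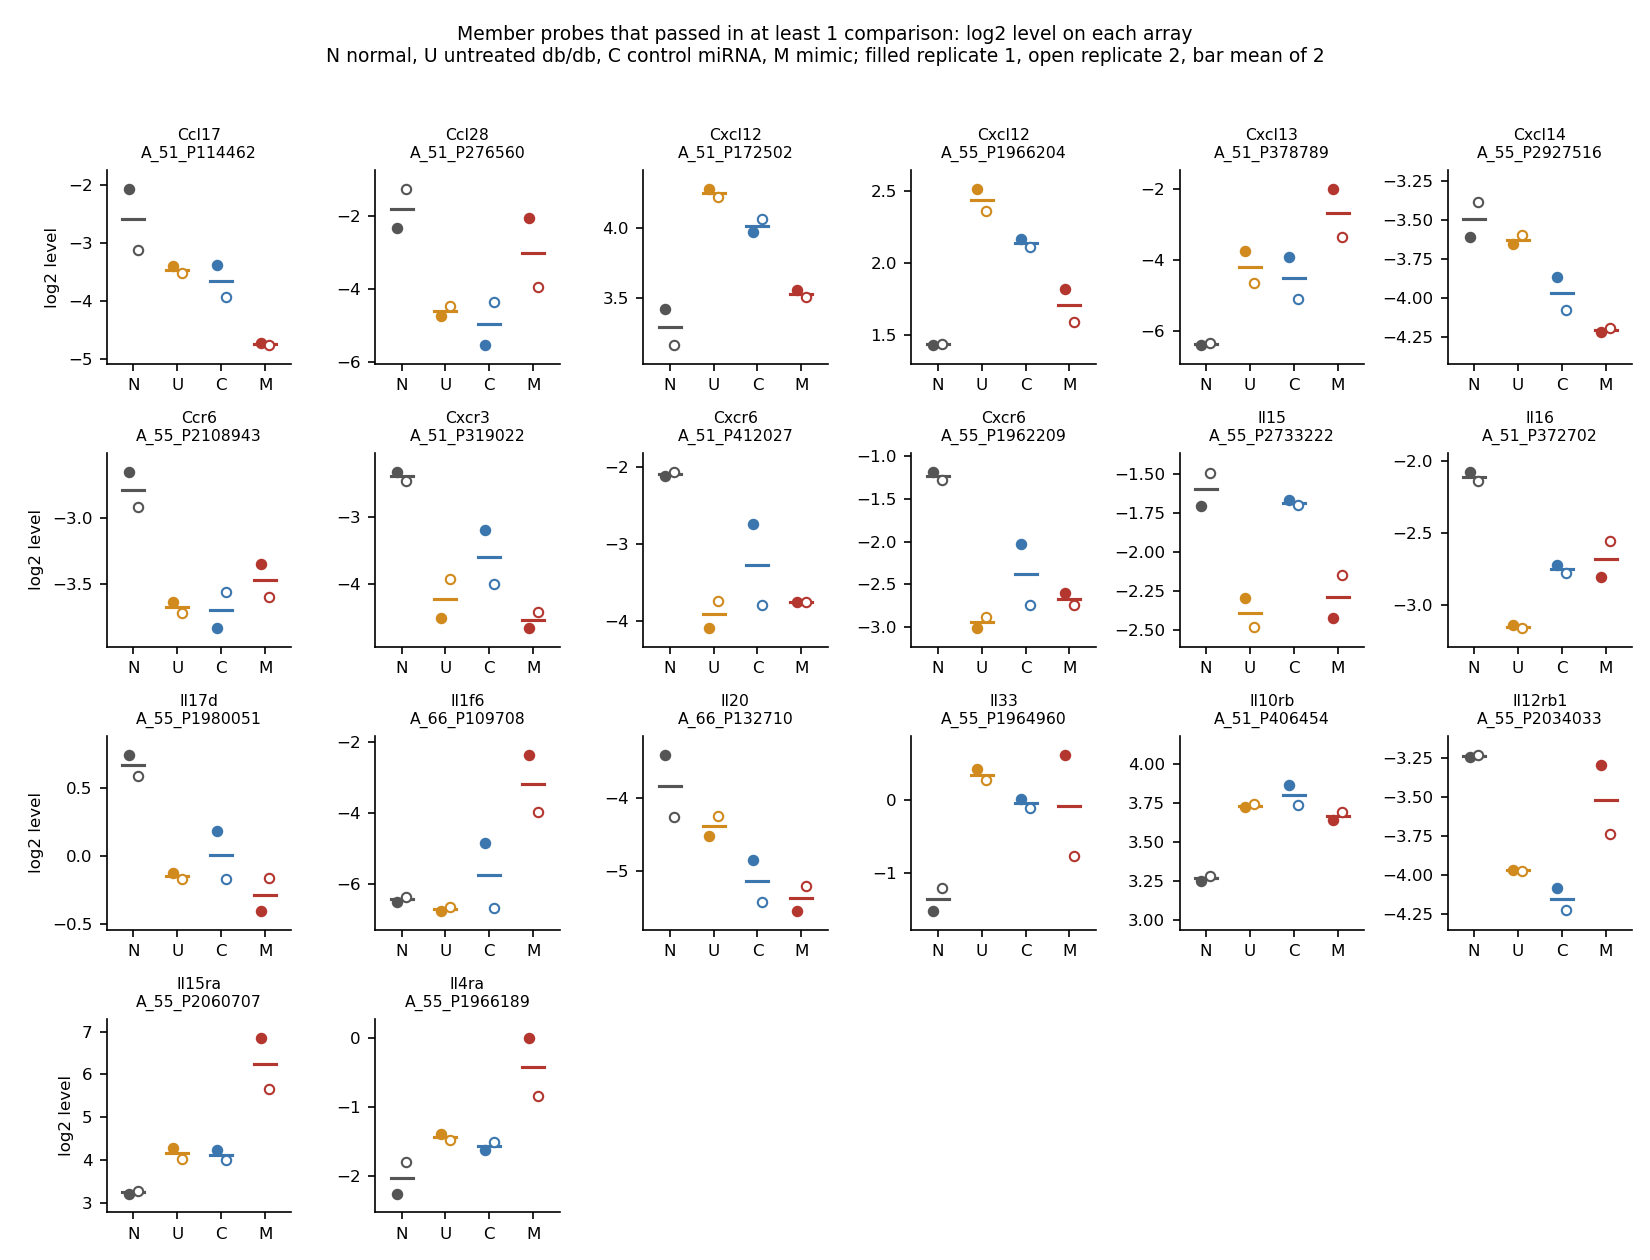
Log2 level on each of the 8 arrays for the 20 member probes that passed in at least 1 comparison, 1 panel a probe with its own axis (N normal, U untreated db/db, C control-miRNA, M mimic; filled circle replicate 1, open circle replicate 2, bar the mean of 2). Both Cxcl12 probes are lowest in normal and highest in untreated kidney, both Cxcr6 probes are highest in normal kidney, and Il15ra reaches 6.86 and 5.65 on the mimic arrays against 3.22 to 4.29 elsewhere.

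The control-miRNA nanoparticles were compared with no treatment within db/db mice. No member probe passed, as no probe of the array did (0%). At an unadjusted p under 0.05 (limma), 2 member probes were higher (2.28% of all probes were) and 3 lower (1.42% of all probes were). The 2 higher ones were the Il15 probe A_55_P2733222, at -1.67 and -1.70 against -2.30 and -2.48 in untreated kidney, and Il16, at -2.72 and -2.78 against -3.14 and -3.16. The lower ones were Il20rb, the dimmer Cxcl14 probe and the dimmer Cx3cl1 probe. The median over the members was 0.00 and that over the chemokine receptors 0.26. Against normal kidney, the control-miRNA group had no passing member probe in either direction (0.574% of all probes passed as higher and 0.936% as lower). At an unadjusted p under 0.05, 6 member probes were higher (8.89% of all probes were) and 17 lower (13% of all probes were). That count of 0 became 17 without either mimic array. The Cxcl12 probes differed from normal by 0.72 and 0.71 there (adjusted p = 0.0607 and 0.0617, limma), and the Cxcr6 probes by -1.15 and -1.18 (adjusted p = 0.0702 and 0.118, limma).

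The 2 control-miRNA samples differed from each other in a few chemokines. Ccl8 was at least 5.01-fold and Cxcl9 at least 2.48-fold higher in replicate 1 than in replicate 2, where neither was above background. Ccl9 was 2.47-fold, Ccl5 2.2-fold and Ccl12 2.06-fold higher. In the same replicate the summed adipocyte markers were 4.65 against 0.847 and the urothelium markers 8.99 against 2.02, and the T and NK cell sum was 7.11 against 5.69. Whether these cells account for the Cxcl9 and Ccl8 levels was not tested. Over the members, replicate 1 was more than 2-fold above replicate 2 for 9 probes (0.901% of all probes), in 5 of which replicate 2 was not above background, and more than 2-fold below for 1 (0.609% of all probes).

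The mimic was compared with the control miRNA, both given as nanoparticles to db/db mice. No member probe passed, and none of the array did (0%). At an unadjusted p under 0.05 (limma), 8 member probes were higher (3.89% of all probes were) and 10 lower (5.54% of all probes were). The Il15ra probe A_55_P2060707 had the smallest p (4.39-fold higher; adjusted p = 0.178, limma). Cxcl12 differed on its 2 probes by -0.48 and -0.43 on the log2 scale (adjusted p = 0.374 and 0.425, limma), and its mimic levels of 3.56 and 3.51 lay between those of normal and control-miRNA kidney. Cxcr3 and Ccl17 were above background on neither mimic array, at least 1.75-fold and 1.69-fold lower (adjusted p = 0.459 and 0.448, limma). Cxcl13, above background on 1 control-miRNA array, differed by 1.83 (adjusted p = 0.438, limma). The Il15 probe A_55_P2733222 differed by -0.60 (adjusted p = 0.341, limma), and its mimic arrays overlapped the untreated ones. Without mimic replicate 2 some members passed. That fit keeps 1 mimic array, replicate 1, and assumes that it varies like the other groups. Without the share of all probes that passed in it, it shows nothing particular to the members.

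Against untreated db/db kidney, the mimic group again had no passing member probe (0% of all probes passed), with 16 higher (6.57% of all probes were) and 11 lower (7.69% of all probes were) at an unadjusted p under 0.05. Both comparisons of the mimic share its 2 arrays. Il20rb had levels of -3.19 and -4.0 in mimic against -2.06 and -1.88 in untreated kidney (3.08-fold lower; adjusted p = 0.137, limma). Cxcl12 differed by -0.71 and -0.73 on its 2 probes (adjusted p = 0.139 and 0.137, limma), without overlap between the groups. Without mimic replicate 2 some members passed, again in a fit with 1 mimic array and without a share over all probes. Both mimic arrays lay above the 4 other db/db arrays for 16 member probes (12.9% of all probes did) and below them for 17 (14.3% of all probes did).

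Against normal kidney, 4 member probes passed as higher in the mimic group (2.74% of all probes did) and 7 as lower (4.63% of all probes did). The Il15ra probe A_55_P2060707 (chr2:11655416-11655475, mm9), for the chain that presents Il15 to neighbouring cells, had levels of 3.22 and 3.28 in normal, 4.29 and 4.04 in untreated, 4.24 and 4.00 in control-miRNA and 6.86 and 5.65 in mimic kidney. It was 8.03-fold higher in mimic than in normal kidney (3.01 ± 0.37 SE, log2; adjusted p = 0.0107, limma). The 2 other Il15ra probes (chr2:11654809-11654868, and a match split over chr2:11645753-11652254, mm9) differed by 0.28 and 0.30 and did not pass, and 1 of them is named for the same transcript. Cxcl13 had -2.0 and -3.35 in mimic kidney and was on neither normal array above background, at least 3.31-fold higher (measured means 12.8-fold apart; adjusted p = 0.0211, limma). Il1f6, also called Il36a, an epithelial cytokine of the Il1 family (A_66_P109708, chr2:24081127-24081186, mm9), was above background on the 2 mimic arrays alone, with levels of -2.36 and -3.98 against -6.52 and -6.37 in normal kidney. It was at least 2.35-fold higher (adjusted p = 0.0455, limma). Both Il1f6 and Cxcl13 were kept through the mimic group alone, so the filter itself favours a higher mimic level for them, and their calls are a description. Il4ra rose 3.04-fold on probe A_55_P1966189 (adjusted p = 0.0319, limma), with 0.00 and -0.84 in mimic against -2.25 and -1.80 in normal kidney, while its brighter probe differed by 0.57 (adjusted p = 0.299, limma).

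The lower ones in mimic against normal kidney were Cxcr3, both Cxcr6 probes, Ccl17, Il17d, Il20 and the dimmer Cxcl14 probe. Ccl17, a Th2 cell attractant (A_51_P114462, chr8:97335770-97335829, mm9), had levels of -2.06 and -3.11 in normal, -3.40 and -3.51 in untreated, -3.38 and -3.93 in control-miRNA and -4.73 and -4.76 in mimic kidney. It was not above background in mimic kidney and at least 3.54-fold lower (adjusted p = 0.0229, limma). Cxcr3 was at least 4.03-fold lower (adjusted p = 0.0172, limma) and Cxcr6 2.70-fold and 3.18-fold lower on its 2 probes. Il17d was 1.94-fold lower (adjusted p = 0.0281), Il20 at least 1.49-fold (adjusted p = 0.0467) and Cxcl14 at least 1.64-fold (adjusted p = 0.0364, all limma). The count of 11 fell to none without normal replicate 1 and almost to none without normal replicate 2. It also fell without either untreated array and rose without mimic replicate 2.

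The 2 mimic samples differed from each other more than those of any other group. Replicate 1 was more than 2-fold above replicate 2 for 38 of the 117 member probes (4.69% of all probes) and more than 2-fold below for 4 (5.6% of all probes). The dimmer array was not above background for 10 of the 38 and 3 of the 4. In the normal group the counts were 8 (2.62%) and 1 (0.422%), and in the untreated group 1 (0.496%) and 5 (0.327%). By gene, on the brightest probe, 30 of the 82 were more than 2-fold higher in mimic replicate 1 and 2 were lower, Il5ra and Il7. Of these 2, Il7 was above background on neither mimic array. The median distance between the 2 mimic arrays was 0.72 for the members and 0.29 for all probes. No test is given, since each side is 1 array.

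Cxcl1, the neutrophil attractant, had a level of 2.59 in mimic replicate 1 and -2.40 in replicate 2, against -2.45 to -1.37 on the 6 other arrays, which is a 31.8-fold gap. Il18bp, which neutralises Il18 and is induced by interferon-gamma, had 2.87 against -1.20, a 16.9-fold gap, and its second probe moved likewise. Il1b had -0.08 against -3.90 (14.2-fold), Ccl4 at least 5.97-fold, Ccl9 11.2-fold, Ccl12 10.4-fold and Il34 10.4-fold. These 7 genes were picked for the widest gaps in that direction. In each of them replicate 1 was the highest of all 8 arrays, which adds no support, since the choice favours it. Replicate 2 lay within 0.49 of the control-miRNA mean in 6 of them, and Ccl4 was not above background in replicate 2. Cxcl10 had 4.56 in replicate 1 and 2.00 in replicate 2, Cxcl16 2.63 and 0.50, and Ccl2 0.80 and -1.01. Cx3cl1 and Il33 were 2.23-fold and 2.63-fold apart. Among the receptors Cxcr2, the Cxcl1 receptor of neutrophils, was at least 3.35-fold and Ccr2 2.75-fold higher in replicate 1, whereas Cxcr3, Cxcr6 and Ccr6 differed by less than 2-fold.

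**Figure D4:**
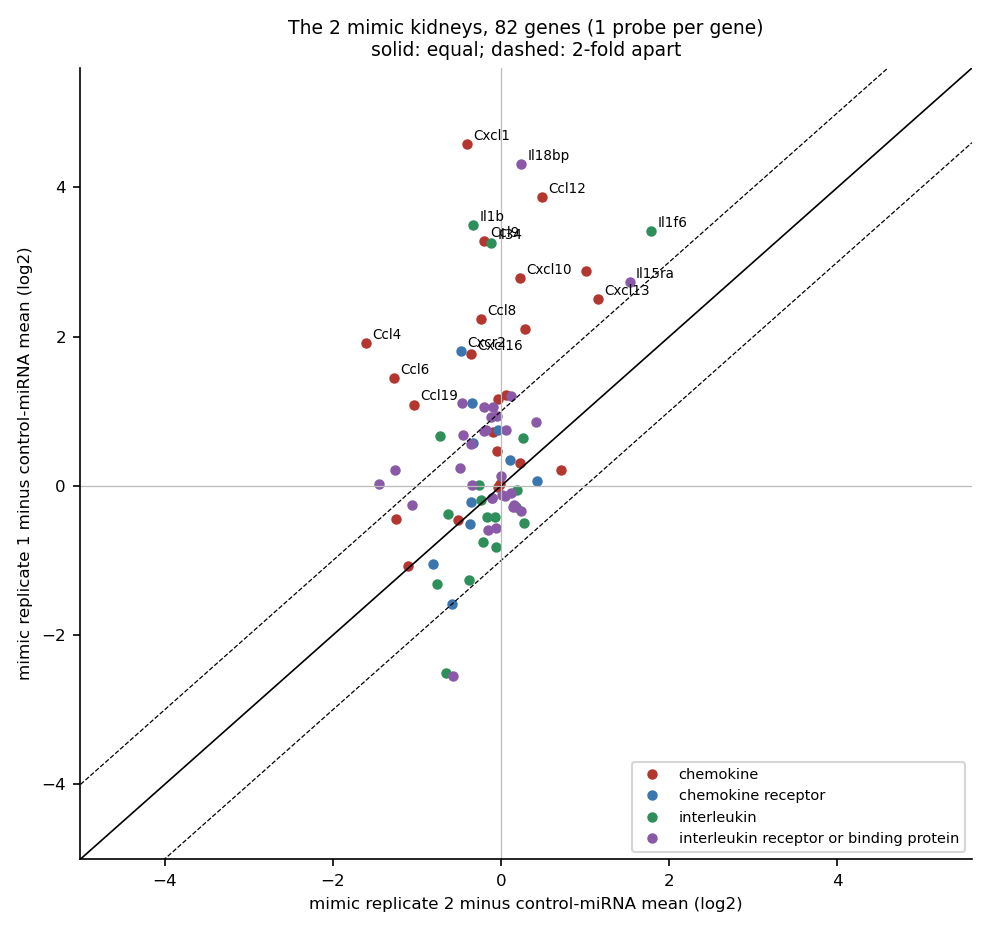
Level of 82 genes in mimic replicate 1 (vertical) and replicate 2 (horizontal), each minus the mean of the 2 control-miRNA arrays (log2), 1 probe per gene, coloured by role; the solid line marks equal values and the dashed lines 2-fold differences. Most genes that left the band lie above it, with Cxcl1 and Il18bp at the top, while Cxcl13, Il15ra and Il1f6 lie above 0 on both axes.

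The summed markers of injury, of macrophages, of neutrophils and of red cells were each highest on the same array. Single markers did not all do so. Csf1r, Ms4a7, Mrc1 and Csf3r were higher on both normal arrays, and the red cell marker Slc4a1 was lowest in mimic replicate 1. Lcn2 had a level of 5.5 in mimic replicate 1 against -0.72 in replicate 2 and Krt20 2.43 against -1.86. The macrophage sum was 81.3 against 20.5, with 11 of 12 markers higher in replicate 1. The neutrophil sum was 93.4 against 42.3, and S100a9 had 5.17 against -0.62. The red cell sum was the highest of all arrays in replicate 1, at 269, and the lowest in replicate 2, at 9.43. The proximal tubule sum was 703 against 1238 and the T and NK cell sum 4.86 against 5.81. Havcr1 did not pass the filter and was not used. The part of these cells or of injury in the chemokine levels of that sample was not tested.

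The remaining members showed no passing difference in any comparison and are given by their range. Among the chemokines, Ccl25 differed from normal by -0.16 in untreated kidney on its brightest probe, Ccl19, a lymphoid Ccr7 ligand, by -0.12 and Ccl21a by -0.69. Ccl1 was near background on all arrays, with levels from -4.69 to -3.89. Among the receptors, Ccr8 had levels from -5.0 to -3.41 and Ccr3, the eosinophil receptor, from -5.68 to -2.91, each above background on 5 of 8 arrays. Ccr7 differed by -0.78 in untreated kidney (adjusted p = 0.167, limma). Among the interleukins, Il11 differed by 0.50 and Il4i1, an enzyme of antigen-presenting cells named with the family, by -0.75 (adjusted p = 0.127 and 0.118, limma). Il1f5, Il13, Il22, Il24 and Il25 were dim on every array, at -5.46 to -2.81. Among the interleukin receptors, Il18r1 differed by -1.26, Il10ra by -1.02 and Il22ra1, an epithelial receptor, by -1.45 in untreated kidney, and Il1rl2, the receptor of Il1f6, above background on 1 normal array, by 1.12, with adjusted p from 0.138 to 0.208 (limma). Normal replicate 1 was more than 2-fold above normal replicate 2 for Il18r1 and Il22ra1. Il5ra was the clearest member in the other direction in the mimic group, with levels of -2.76 and -0.78 against -0.33 to 0.48 on the 6 other arrays. Il7 had -6.64 and -4.79 against -4.46 to -3.85 and was above background on neither mimic array. The receptors Il17rb, Il17rc, Il17rd and Il17re, which bind the Il17 family, differed from normal by -0.22 to 0.01 on their brightest probes in untreated kidney.

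Of 29 genes with more than 1 probe, 13 had probes of opposite sign in untreated minus normal kidney, in most cases with both near 0. The cases that touch a passing probe are Il15, Il15ra, Il4ra and Cxcl14. Whether the probes read different transcripts or 1 of them reads another RNA was not tested. Ccl21a, Ccl27a and Il11ra1 have near-identical copies beside them in the mouse genome, and the Ccl27a probe A_55_P2068734 begins directly after the Il11ra1 probe ends, so these levels may hold more than 1 gene.

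A list of 86 names of pathway genes beyond the members (receptor kinases, adaptors, transcription factors, decoy receptors and related cytokines) gave 73 measured genes. In untreated against normal kidney 1 passed as higher (1.43% of all probes did), Mif, a cytokine that binds Cxcr2 and Cxcr4 (1.03; adjusted p = 0.0253), and 2 as lower (2.41% of all probes did), Csf1r (-1.22; adjusted p = 0.0294) and the cytokine-induced inhibitor Cish (-1.47; adjusted p = 0.045, all limma). In mimic against normal kidney Mif, Ackr2, a decoy receptor for CC chemokines (0.68), and Dpp4, the protease that trims Cxcl12 (0.70), rose, and Csf1r and Arrb1 fell, 3 and 2 of 73 against 2.74% and 4.63% of all probes. Ifng, whose product induces Cxcl9, did not pass the filter. No gene of the list passed in control-miRNA against untreated or in mimic against control-miRNA kidney, with 3 and 6 of 73 at an unadjusted p under 0.05 (limma). The 3 were higher (2.28% of all probes were), and of the 6, 5 were higher (3.89%) and 1 lower (5.54%).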

How the data were processed

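Total RNA of 8 kidney samples was labelled with Cy3 and hybridised to 8 arrays of 1 slide. Per the file headers and the submitters' processing notes, the authors read the spots with Agilent Feature Extraction 12.0.3.1, which subtracts background and gives the deposited processed signal, an intensity that is not scaled between arrays. The deposited series table holds a linear ratio per probe; set against the scanner values it is, per probe, the scaled signal over its median across arrays (r = 0.999996 to 0.999999), with column medians of 1.05, 1.08, 0.979, 0.992, 0.995, 0.971, 0.977 and 1.03. How the authors scaled it is not given in the sources used here.

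From the processed signal, spots of a probe were averaged without outlier flags, the 75th percentile of each array was subtracted on the log2 scale, and probes were kept when well above background on both arrays of a group. The 33639 kept probes were fitted with 1 mean per group over all 8 arrays (limma 3.58.1, R 4.3.3; 4 residual and 2.33 prior degrees of freedom), with Benjamini-Hochberg adjustment over all of them and a threshold of 0.05. Their number limits the precision. The fit was tested on simulated data. Replicate numbers did not pair the samples: the correlations of same-numbered deviations ran from -0.03 to 0.16. Names were checked against RefSeq (GRCm38.p6), 191 of the 223 member probes by accession and 32 by symbol; probe positions are the array's own (mm9), and exons were not assigned. A gene with several probes is represented by the brightest. Genes were named that passed in any comparison, had the smallest p in 3 comparisons, stood on a list of 33 or had replicates more than 2-fold apart; 65 of 69 passed the filter. The members and lists were chosen with earlier results of these data known. Alternatives were another background correction, quantile scaling, other filters, a floor, 1 probe per gene, the compared groups alone, array weights, a replicate block, slide column as a block, the deposited table and leaving out each array.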

Additional observations from a re-analysis of the deposited data

How the results depend on the processing

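No call of a member probe reversed: 41 calls were recomputed under 735 combinations with an alternative, of which 421 still passed and 314 did not. With the deposited table all 41 passed, and with normexp background correction 35 did. Control-miRNA against untreated had 0 passing members under every alternative run, and both comparisons of the mimic within db/db had 0 except without mimic replicate 2.

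Counts of passing members that moved by more than 1.5 times were as follows. For untreated against normal (8), normexp gave 20, no filter on dim probes 0, 1 probe per gene 5, the compared groups alone 31, array weights 18 and the replicate block 4. For control-miRNA against normal (0), normexp gave 9, probes detected on all arrays 4, a floor at the lowest detected signal 4, the compared groups alone 4 and array weights 9. For mimic against normal (11), no filter gave 5, the compared groups alone 0, array weights 1 and the replicate block 7. For all db/db against normal (17), normexp gave 26 and no filter 8. For the F test (5), normexp gave 8, quantile scaling 2, no filter 0 and the replicate block 0. The share of all probes that passed under each alternative is not given, so these counts show nothing particular to the members. The cause was not tested. Leaving out 1 array gave 0 to 30 for untreated against normal, 0 to 41 for mimic against control-miRNA, 0 to 49 for mimic against untreated, 0 to 17 for control-miRNA against normal, 0 to 53 for mimic against normal, 0 to 42 for all db/db against normal and 0 to 53 for the F test. The block could not pair samples by design and slide column as a block gave 0 in the 2 comparisons that allow it. Array weights were equal within each group, 0.355 in the mimic and 2.19 in the untreated group. In the mimic comparison with control-miRNA, 34 of 82 genes changed sign without replicate 1, 8 of them from a difference above 0.5. Dim members, such as Il1f6, Cxcl9 and Ccl8, are limited by signal over background.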

Other observations

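The members that failed the filter are described by the arrays on which they were detected. Of 106 such probes, 81 were well above background on no array, 16 on 1, 8 on 2 and 1 on 3. On mimic replicate 1, 18 of them were well above background, on mimic replicate 2 none was (0), and on each of the other arrays 1 to 5 were. A probe detected on both arrays of a group would have passed the filter, so none of the 18 could be detected on mimic replicate 2. The share over all probes that failed the filter is not given. Among those detected on that array alone were the neutrophil attractants Cxcl2, Cxcl3 and Cxcl5, the macrophage chemokine Ccl3, the Ccr6 ligand Ccl20, Cxcl17, the decoy receptor Il1r2 and the Il1 antagonist Il1rn on 1 probe each, and second probes of Cxcl10, Il1f6 and Il6ra. Ccl7 was detected there and on normal replicate 2, and Ccl11 there and on normal replicate 1. These are calls on single arrays, chosen after their values were seen, and have no test.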
